A study of Mus musculus with 16 samples.

Results

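The glycolytic enzyme genes Hk2, Pfkp, Aldoa, Aldoc, Gapdh, Pgk1, Eno1, Eno2, Pkm and Ldha were followed across the cell clusters and time points of a single-cell RNA data set from injured mouse spinal cord. They were chosen by name and are 10 of the 55487 genes that the data list. Glycolysis turns glucose into pyruvate in the cytosol and yields ATP without oxygen, and lactate dehydrogenase interconverts pyruvate and lactate. Many of its steps are carried out by isoenzymes, encoded by separate genes, that cell types use in different proportions. In nervous tissue, aldolase C is long known as an astrocyte protein and enolase 2 as a neuronal one, and activated immune cells are known to use glycolysis heavily.

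Cells had been dissociated from tissue around the core of a dorsal column lesion at cervical level, with 1 library per mouse and 16 mice aged 8 to 10 weeks. Controls (Ryk+/+,GFAPcreERT2, called WT below) and conditional knockouts of the Wnt receptor gene Ryk (Rykfl/fl,GFAPcreERT2, called cKO) both carried the tamoxifen-inducible Cre recombinase under a GFAP promoter, and per the study's methods tamoxifen was given to all. Mice of each genotype were uninjured (the labels say Sham, the study's paper uninjured) or were taken 1 d, 7 d or 14 d after the lesion, with 2 mice in each of the 8 conditions. The data hold 18203 cells in 17 clusters with the authors' labels.

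Several libraries stood apart. WT 1 d replicate 2 held 1 cell and was left out, so that WT at 1 d rests on 1 mouse, and 15 mice were used. The replicate 1 mice at 1 d and 7 d of both genotypes were shallow, with a median of 414 to 548 unique molecular identifiers (UMIs) per cell, against 1040.5 to 3637 in the other 11 mice. Of 166 cell barcodes that occurred in more than 1 mouse, 119 occurred in at least 2 of these 4 shallow mice and 28 in all 4. Cells with a shared barcode made up 11.6% of WT 1 d replicate 1, 10.1% of WT 7 d replicate 1, 6.21% of cKO 1 d replicate 1 and 2.30% of cKO 7 d replicate 1. For 6 mice, all of them replicate 2, cell names carried a condition that differed from the sample title, and titles were followed here. In the uninjured replicate 2 mice, the nuclear RNA Malat1 made up 1.19% (WT) and 1.34% (cKO) of UMIs and mitochondrial genes 6.52% and 7.17%, against 2.00 to 3.58% and 1.53 to 4.75% in the other mice.

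Ryk itself was read in the clusters labelled Astro. In Cluster 7 it lay at 123 to 239 CPM (counts scaled to the same total in each sum of UMIs) in 7 WT mice and at 36.1 to 192 in 8 cKO mice, with means of 152 ± 39.4 and 117 ± 55.4 (± is the SD over mice wherever CPM or shares are given). In Cluster 5 it was 75.9 ± 31.6 in 7 WT mice (44.3 to 139) and 77.8 ± 43.8 in 7 cKO mice (0 to 142). In Cluster 2 it was 28.4 ± 32.1 in 6 WT mice and 25.9 ± 9.98 in 5 cKO mice. The genotypes overlapped in all 3 clusters. UMIs count molecules at their 3′ ends, which may lie outside the deleted part, and which exons were deleted is not given in the sources used here.

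The authors' labels were compared with marker lists. The list matched to the label (macrophage for Immuno, neutrophil for myeloid Cells) was the highest of the lists in 15 of the 17 clusters. It was not in Cluster 2, labelled Astro, where neuron markers averaged 1.97 and astrocyte markers 1.95 on a log2 scale relative to the mean over clusters. Oligodendrocyte markers in Cluster 2 summed to 3939 to 35412 CPM. Endothelial markers there summed to 13348 in WT 7 d replicate 1 (astrocyte markers 1969) and 5476 in WT uninjured replicate 1 (astrocyte markers 5598). In its other mice endothelial markers summed to 0 to 487. Cluster 13, labelled Unk, names no cell type and had ependymal markers highest, at 5.47. Clusters 6 and 10, both labelled Microglial, had microglia markers highest, at 5.66 and 4.40, Cluster 12 macrophage markers, at 5.01, and Cluster 16 neutrophil markers, at 8.31. Clusters 2 and 5 also differed from the remaining clusters in RNA composition, with medians over cells of 11.3% and 10.7% mitochondrial UMIs and 0.2998% and 0.570% Malat1. With mitochondrial genes and Malat1 left out of the totals, each of the 10 members kept its highest cluster given below.

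Levels are given as the mean CPM over mice with at least 10 cells of a cluster. UMIs are not divided by gene length, and levels of different genes are not compared beyond the shares given further on. Hk2 (ENSMUSG00000000628.10, 6:82725025-82774454, minus strand, with all coordinates on mm10), which encodes hexokinase 2 and phosphorylates glucose in the first step, had 3871 UMIs in all. It was highest in Cluster 6, at 441 ± 147 (14 mice, 189 to 845), followed by Cluster 10, at 308 ± 157 (14 mice), and Cluster 12, at 172 ± 90.4 (10 mice). It was lowest in endothelial Cluster 1, at 1.14. Hk2 was thus a transcript of the microglial and macrophage clusters, and the highest mean was 386 times the lowest.

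Pfkp (ENSMUSG00000021196.14, 13:6579768-6648777, minus strand; 4393 UMIs) encodes the platelet type of phosphofructokinase, the committed step. It was highest in astrocyte Clusters 7, at 352 ± 76.3 (15 mice), and 5, at 250 ± 126 (14 mice), then in neuronal Cluster 3, at 128 ± 49.2 (15 mice). It was lowest in microglial Cluster 6, at 4.80. Cluster 6 was thus at opposite ends of the orders of Hk2 and Pfkp.

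Aldolase splits the phosphorylated hexose, and its A and C forms were arranged differently. Aldoa (ENSMUSG00000030695.16, 7:126795234-126800751, minus strand; 13031 UMIs) had a narrow range, from 601 ± 176 in Cluster 16 (5 mice) and 521 ± 154 in Cluster 10 (14 mice) to 111 in Cluster 3, a ratio of 5.39. Aldoc (ENSMUSG00000017390.15, 11:78322968-78327781, plus strand; 22055 UMIs) was highest in the clusters labelled Astro: 3018 ± 763 in Cluster 5 (14 mice), 1761 ± 712 in Cluster 2 (11 mice) and 1285 ± 322 in Cluster 7 (15 mice). Oligodendrocyte Cluster 8 followed at 465 ± 160 (14 mice), and the lowest was Cluster 14, at 29.1. Every Cluster 7 mouse lay above every Cluster 8 mouse for Aldoc, the only step in the order of any member at which neighbouring clusters did not overlap.

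Gapdh (ENSMUSG00000057666.18, 6:125161715-125166467, minus strand; 21383 UMIs) encodes the enzyme of the NADH-yielding step of the lower pathway. It was highest in Cluster 10, at 1234 ± 541 (14 mice), with Clusters 16 and 12 at 1121 and 1068, and lowest in Cluster 3, at 108. Pgk1 (ENSMUSG00000062070.12, X:106187100-106203699, plus strand; 4592 UMIs), phosphoglycerate kinase, which makes the first ATP, was highest in Cluster 16, at 328 ± 334 (5 mice), and Cluster 5, at 223, and lowest in Cluster 3, at 49.5. The 2 highest mice of Cluster 16, shallow mice at 1 d, had 903 and 327 CPM from 5 and 2 UMIs, and without the shallow mice Pgk1 was highest in Cluster 5. Gapdh and Pgk1 were both lowest in the neuronal Cluster 3, as Aldoa was. Without the 1 d mice this held for Gapdh (111) and Aldoa (123), while Pgk1 was lowest in Cluster 15, at 35.0, with Cluster 3 at 56.2.

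The enolases, which make phosphoenolpyruvate, differed from each other. Eno1 (ENSMUSG00000063524.13, 4:150236721-150248879, plus strand; 5190 UMIs) was highest in Clusters 16, 12 and 5, at 516, 354 and 260, and lowest in Cluster 3, at 22.6. Eno2 (ENSMUSG00000004267.16, 6:124760053-124769673, minus strand; 2304 UMIs) was highest in Cluster 2, at 216 ± 87.0 (11 mice), and Cluster 3, at 126 ± 38.1 (15 mice), and lowest in Cluster 6, at 5.81. The neuronal cluster in which Eno1 was lowest was near the top for Eno2, and Cluster 2, whose markers were mixed, was above it. The Cluster 2 mean of Eno2 includes WT 7 d replicate 1 and WT uninjured replicate 1, at 219 and 243 CPM from 1 and 2 UMIs.

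Pkm (ENSMUSG00000032294.17, 9:59656368-59679375, plus strand; 11945 UMIs), pyruvate kinase, was highest in Clusters 16, 10 and 5, at 831, 463 and 439, and lowest in Cluster 15, at 110. Ldha (ENSMUSG00000063229.15, 7:46841475-46855627, plus strand; 5702 UMIs), the A subunit of lactate dehydrogenase, was highest in Clusters 16, 12, 10 and 1, at 419, 312, 273 and 202, and lowest in Cluster 8, at 12.2. Endothelial Cluster 1 thus came next after Clusters 16, 12 and 10 for Ldha and above microglial Cluster 6, at 119. For each member except Aldoc, neighbours in the order of the 17 clusters overlapped at all 16 steps. When at least 30 cells were required, Aldoa, Gapdh, Pgk1, Eno1, Pkm and Ldha were highest in Cluster 12, with both Clusters 12 and 16 reduced to fewer mice and the shallow 1 d mice among those of Cluster 12.

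These orders pool time points, and 3 of the 5 mice of Cluster 16 and 3 of the 10 of Cluster 12 were taken at 1 d. Without the 1 d mice, 6 of 10 members kept their highest cluster, while Aldoa was highest in Cluster 10, at 540, and Pgk1, Eno1 and Pkm in Cluster 5, at 257, 255 and 493. Ldha stayed highest in Cluster 16, at 247 from 2 mice, and its level of 178 in endothelial Cluster 1 then came after Clusters 17 and 10 and above Cluster 12, at 155. The high ranks of Clusters 16 and 12 thus rested in large part on mice taken at 1 d.

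**Figure D1:**
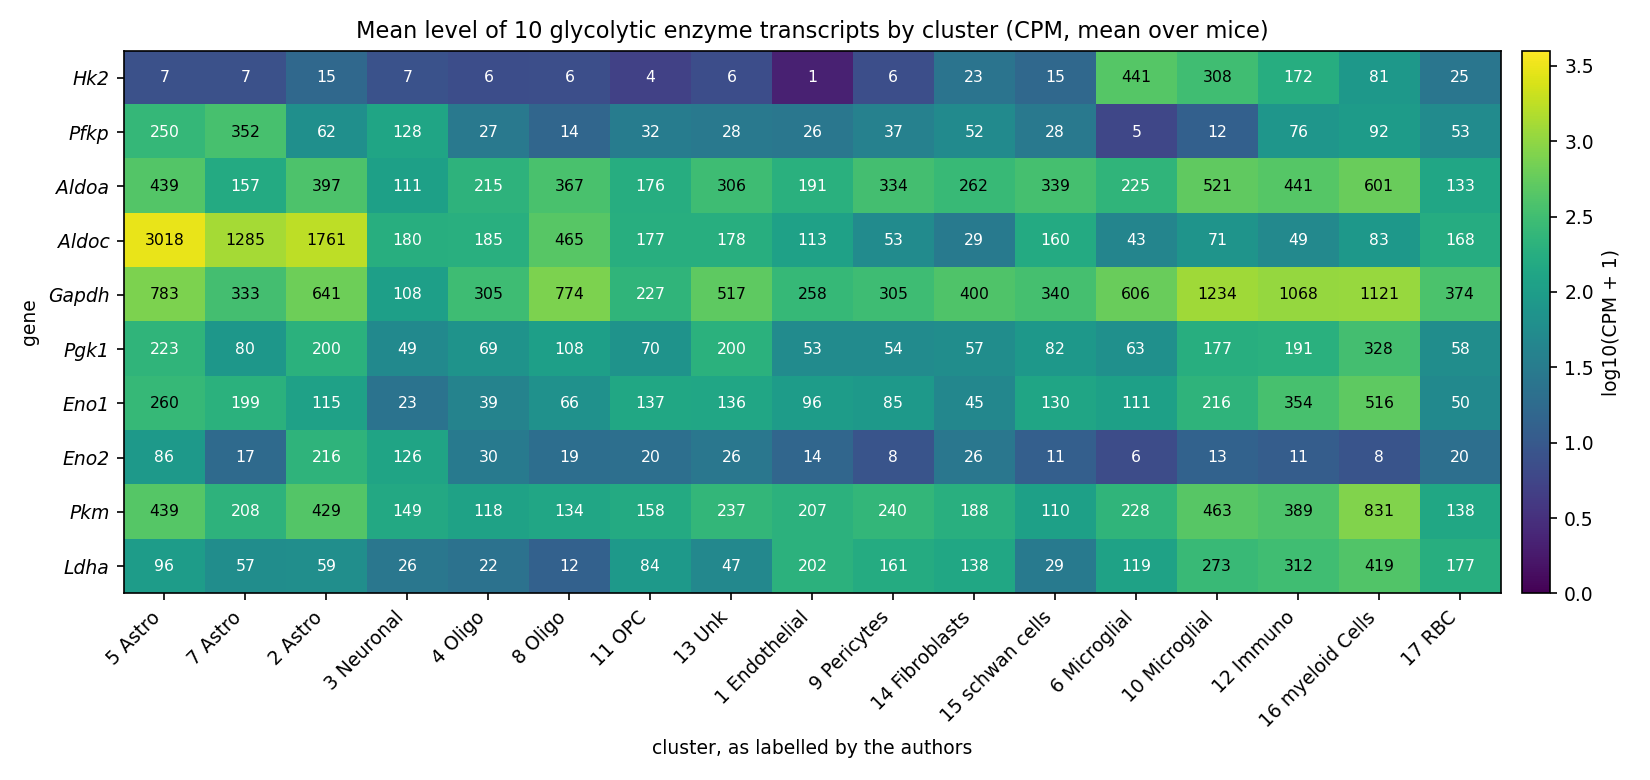
Mean level of each member (lines) in each cluster (columns), as mean CPM over mice, with colour on a log10 scale. Hk2 was highest in Cluster 6 (441), Aldoc in Cluster 5 (3018) and Eno2 in Cluster 2 (216).

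Summed over the members, Cluster 5 had the most, at 5600 ± 1463, followed by Cluster 16 at 4080 ± 2044, Cluster 2 at 3895 ± 1290 and Cluster 10 at 3288 ± 843. Clusters 4 and 3 had the least, at 1017 ± 395 and 908 ± 277. Aldoc alone made up 3018 of the summed CPM in Cluster 5.

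Pairs of isoenzymes were compared as the share of UMIs that fell to each, over mice with at least 20 UMIs of the pair. Since these are 3′ counts, the shares are of molecules counted. Aldoc made up 89.1 ± 3.43% of Aldoa and Aldoc in Cluster 7 (15 mice), 87.3 ± 2.09% in Cluster 5 and 81.5 ± 7.58% in Cluster 2, against 62.8 ± 4.42% in neuronal Cluster 3 and 17.3 ± 4.82% and 12.5% in microglial Clusters 6 and 10. Aldolase C was thus the main aldolase transcript of the clusters labelled Astro and a minor one in microglia. In Cluster 3, the 8 astrocyte markers summed to 357 to 1974 CPM over its mice. The part of astrocyte RNA in the Aldoc share of Cluster 3 was not tested. Eno2 made up 80.9 ± 6.11% of Eno1 and Eno2 in Cluster 3 (11 mice), 59.1 ± 8.84% in oligodendrocyte Cluster 4 (4 mice) and 57.4 ± 14.9% in Cluster 2, but 33.0 ± 11.3% in Cluster 5, 7.24 ± 2.67% in Cluster 7 and 1.25% in Cluster 12. The share of Eno2 separated astrocyte Clusters 5 and 7, which were alike in their aldolase.

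Hk2 made up 95.8 ± 1.94% of Hk1 and Hk2 in Cluster 6 (12 mice) and 95.2 ± 1.87% in Cluster 10 (8 mice), 69.2 ± 16.5% in Cluster 12, 12.96% in Cluster 3, 3.73% in Cluster 7, 2.53% in Cluster 5 and 1.16% in Cluster 1. Hk2 was thus the main transcript of this pair in microglia, and Hk1 in neurons, astrocytes and endothelium. Pfkp made up 63.6 ± 4.31% of the 3 phosphofructokinase genes in Cluster 3 (11 mice) and 58.4 ± 7.39% in Cluster 7 (11 mice), 37.6% in Cluster 5 and 6.78 ± 5.91% in Cluster 6 (3 mice). In Cluster 5, Pfkm, the muscle form, had 271 CPM.

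For lactate dehydrogenase, Ldhb, whose subunit is known to favour the oxidation of lactate, made up 96.1 ± 3.23% of Ldha and Ldhb in oligodendrocyte Cluster 8 (10 mice), 83.6% in Cluster 7 and 83.0% in Cluster 5. It made up 73.3 ± 13.5% in Cluster 6 (14 mice), 51.1 ± 14.9% in Cluster 10 (11 mice), 15.98 ± 10.1% in endothelial Cluster 1 (14 mice) and 3.75 ± 3.16% in Cluster 12 (5 mice). In oligodendrocyte precursor Cluster 11 it made up 47.6 ± 20.04% (5 mice). Ldha was therefore the main form in endothelium and macrophages and the minor one in astrocytes, oligodendrocytes and Cluster 6, while Clusters 10 and 11 held both forms in near equal parts, with wide spread over mice. Reads of near copies did not add much to any member: Eno1b had 179 UMIs, the second gene named Aldoa (ENSMUSG00000114515.2, 7:126800790-126809108) 21, and Ldha-ps2 8.

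**Figure D2:**
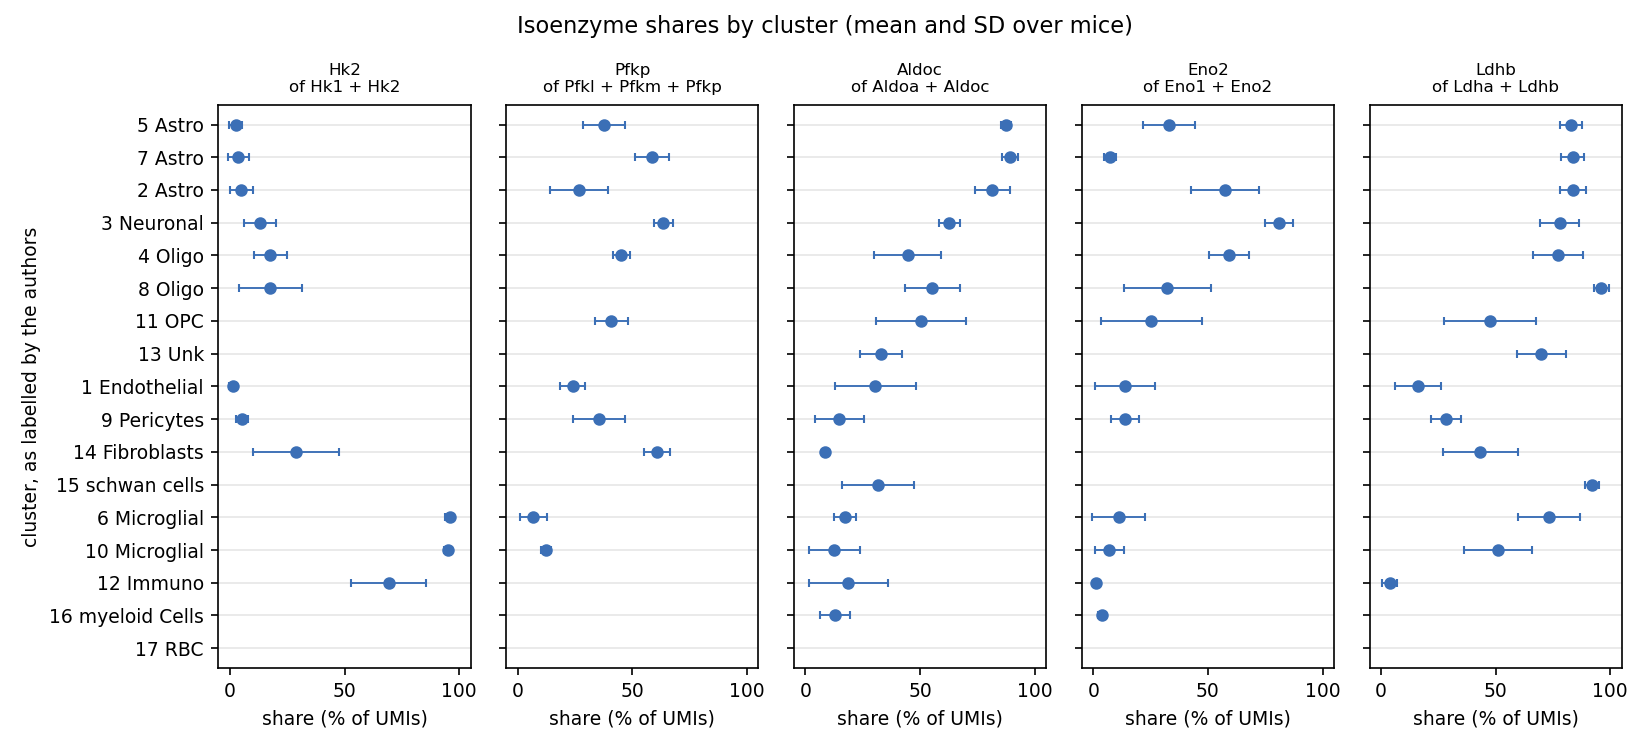
Share of UMIs (percent, horizontal axis) that fell to Hk2, Pfkp, Aldoc, Eno2 and Ldhb among the isoenzyme genes of their step, by cluster (points are means, bars SD over mice). The Aldoc share ran from 89.1% in Cluster 7 to 8.66% in Cluster 14, and the Hk2 share from 95.8% in Cluster 6 to 1.16% in Cluster 1.

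Across the 17 cluster means, the members varied together to different degrees (Pearson r of log CPM, given as a description since the clusters share libraries). Aldoa and Gapdh had the highest r, 0.846, then Pgk1 and Pkm, 0.819, and Eno1 and Pkm, 0.770. Isoenzymes did not follow each other: r was −0.015 for Aldoa and Aldoc and −0.308 for Eno1 and Eno2. Hk2 and Aldoc had the lowest, −0.521.

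Among 10194 genes with enough counts, the 3 genes outside the members that were most like each member over the 17 clusters were taken. For Hk2 they were Csf1r (r 0.986), Cebpa (0.981) and Ctss (0.980), with Csf1r encoding the colony-stimulating factor receptor of microglia and macrophages. For Aldoc they were Kcnj10 (0.941), which encodes a potassium channel of astrocytes, Mmd2 (0.931) and Enho (0.927). For Eno2 they were Rph3a (0.961), a synaptic vesicle protein gene, Ckmt1 (0.950) and Tmem130 (0.950). For Pfkp they were Gm48606 (0.886), Gabra2 (0.866) and Cd38 (0.864). Of these 4 members, Pfkp had the lowest r with its nearest gene.

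For the remaining members, r with the genes named ran from 0.723 to 0.916, and for several of them another member was as close or closer, as for Aldoa and Gapdh. Outside the members, Aldoa was nearest to Atp6v1f (0.836), Ndufb1-ps (0.813) and Cnih4 (0.813), and Gapdh to Ndufb1-ps (0.8292), Gabarap (0.826) and Cnih4 (0.797). Pgk1 was nearest to Pgam1 (0.889), the phosphoglycerate mutase gene that encodes the next enzyme, then Suds3 (0.733) and Tmem50b (0.723). Pgam1 recurred for Pkm (Fam168b 0.880, Pgam1 0.849, Suds3 0.811) and for Eno1 (Gm2a 0.844, Hif1a 0.832, Pgam1 0.754), where Hif1a encodes the oxygen-regulated subunit of a transcription factor. Ldha was nearest to Tnfrsf1a (0.916), Zc3hav1 (0.913) and H2-T22 (0.890).

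Time after the lesion was compared on UMI sums per mouse in 10 clusters by edgeR quasi-likelihood tests, averaged over genotypes, with Benjamini-Hochberg adjustment over all genes tested in a cluster and a threshold of 0.05. Aldoa, Aldoc, Gapdh, Pgk1, Eno1 and Pkm were tested in all 10 clusters, Ldha in 9, Pfkp and Eno2 in 6 and Hk2 in 3, which made 84 tests. All 3 time points share the uninjured mice. A p that misses the threshold does not show that values did not differ.

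At 1 d, no member passed by edgeR (0 of 84 tests, against 0.0412% of 75264 gene tests, 31 in all, 29 of them higher and 2 lower). At unadjusted p under 0.05, members gave 15 of 84 tests (17.9%), 10 higher and 5 lower, against 6.62% of all genes. DESeq2 called 2 member tests, Gapdh in Clusters 6 and 10, against 0.0372% of the genes it tested. With the mice blocked by replicate number, 56 genes and 0 members were called by edgeR, and 2 members without its filter on low counts. The median member difference over the 84 tests was −0.19 on the log2 scale, against −0.18 for all genes, a median that pools clusters in which members lay on opposite sides of 0. Microglial Cluster 6 gave 6 of its 8 member tests to the 15, against 12.1% of all genes there, and microglial Cluster 10 gave 3 of 10, against 10.1%.

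In microglial Cluster 6, Gapdh had 332 (WT replicate 1), 539 (WT replicate 2) and 237 (cKO replicate 2) CPM in uninjured mice, and 1618 (WT replicate 1), 1023 (cKO replicate 1) and 1214 (cKO replicate 2) at 1 d. All 3 mice at 1 d lay above all uninjured mice. The 4 mice at 7 d had 616, 312, 619 and 287 and the 4 at 14 d 665, 282, 387 and 359, which overlapped the uninjured mice. The counts behind these values at 1 d were 77, 67 and 266 UMIs. Uninjured cKO replicate 1 had too few cells in Clusters 6 and 10 and does not enter there.

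The difference of Gapdh at 1 d in Cluster 6 was 1.96 ± 0.52 (log2; ± is the standard error wherever differences are given; edgeR adjusted p = 0.168, 0.00551 to 0.804 over the alternative settings). By DESeq2 it was 1.98 ± 0.53, with an adjusted p of 0.0212. The lowest value of the range came from edgeR without its filter on low counts, so the call depended on the tool and on that setting. Without the 4 shallow mice, which leaves 1 mouse at 1 d, the difference was 2.49. It was 1.95 without shared barcodes and 1.11 under the conditions of the cell names.

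In microglial Cluster 10, Gapdh had 700, 842 and 594 CPM in the uninjured mice (WT replicates 1 and 2, cKO replicate 2) and 2607, 1876 and 1742 at 1 d (WT replicate 1, cKO replicates 1 and 2). Again all mice at 1 d were above all uninjured mice, on 64, 60 and 338 UMIs. At 7 d it was 1241, 729, 1057 and 1249 and at 14 d 1398, 1069, 1162 and 1004. Every 14 d mouse remained above every uninjured mouse, while the 7 d mice overlapped them. The difference at 1 d was 1.61 ± 0.47 (edgeR adjusted p = 0.198, 0.0108 to 0.733 over the alternatives, the lowest by DESeq2), where the median gene of that cluster was at 0.40, or 0.24 with another scaling (RLE). At 14 d it was 1.12 ± 0.44 (edgeR adjusted p = 0.233, 0.165 to 0.634 over the alternatives), below the median gene of the cluster, at 1.33.

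Ldha in Cluster 6 had 60.4, 56.7 and 47.4 CPM in the uninjured mice, from 14, 6 and 3 UMIs, and 294, 244 and 192 at 1 d, from 14, 16 and 42 UMIs. The groups did not overlap. At 7 d it was 103, 53.8, 164 and 60.5, and at 14 d 125, 92.6, 89.6 and 80.4, all 14 d mice lying above the uninjured. The difference at 1 d was 2.12 ± 0.58 (edgeR adjusted p = 0.188, 0.0738 to 0.804 over the alternatives). In Cluster 10, Ldha had 233, 183 and 170 CPM uninjured and 448, 657 and 366 at 1 d, again without overlap, with a difference of 1.24 ± 0.59 (edgeR adjusted p = 0.484).

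Pgk1 in Cluster 6 had 47.4, 28.4 and 15.8 CPM in the uninjured mice, from 11, 3 and 1 UMIs, and 168, 137 and 151 at 1 d, from 8, 9 and 33 UMIs. The groups did not overlap, on few molecules. The difference was 2.51 ± 0.67 (edgeR adjusted p = 0.177, 0.0639 to 0.780 over the alternatives). Pkm in Cluster 6 had 90.5, 180 and 158 CPM uninjured and 651, 351 and 320 at 1 d. These did not overlap either, with a difference of 1.59 ± 0.55 (edgeR adjusted p = 0.293). In Cluster 10, Pkm had 233, 256 and 424 uninjured and 896, 406 and 737 at 1 d, with cKO 1 d replicate 1 below the highest uninjured mouse.

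Eno1 in Cluster 10 had 156, 110 and 212 CPM in uninjured mice and 407, 406 and 227 at 1 d. The groups did not overlap, though cKO 1 d replicate 2 was close to the highest uninjured mouse, and the difference was 0.98 ± 0.58 (edgeR adjusted p = 0.550). In all, every 1 d mouse lay above every uninjured mouse (TMM-scaled CPM) for 4 of 8 members in Cluster 6, against 8.82% of 7394 genes, and for 3 of 10 in Cluster 10, against 10.6% of 6788 genes. The median of the 8 members in Cluster 6 was 1.77, against −0.06 for all genes, with 7 of 8 above 0. In Cluster 10 it was 0.14 against 0.40, with 7 of 10 above 0. In Cluster 7 it was −0.33 against −0.30, or −0.17 against −0.16 with RLE scaling. Without the shallow mice the Cluster 7 median was −0.39 against −0.02, with 1 of 8 members above 0. With RLE scaling the Cluster 10 median was −0.02 against 0.24, with 5 of 10 above 0, and without the shallow mice 1.00 against 0.88. The scaling moved members and all genes of Cluster 10 alike, and the members there stayed below the median gene in both.

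Hk2 did not share this course. In Cluster 6 it had 414, 520 and 395 CPM in uninjured mice and 189, 259 and 379 at 1 d. All 3 mice at 1 d were below the uninjured in CPM, cKO replicate 2 narrowly, and on the TMM-scaled values that the fits and the counts above use that mouse overlapped them. At 7 d it was 411, 439, 428 and 456 and at 14 d 845, 516, 443 and 487, with WT 14 d replicate 1 the highest mouse. The difference at 1 d was −0.89 ± 0.42 (edgeR adjusted p = 0.408) and 0.07 without the shallow mice, so that its direction rested on them.

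The share of Ldhb in Cluster 6 was 87.7%, 90.2% and 90.9% in the uninjured mice and 46.2%, 52.9% and 57.1% at 1 d. All 1 d mice were below all uninjured mice, from 12, 18 and 56 UMIs of Ldhb. At 7 d it was 78.4%, 80.6%, 67.8% and 78.3% and at 14 d 76.7%, 70.2%, 71.9% and 77.1%, between the other groups. Ldhb itself had 431, 520 and 474 CPM uninjured and 252, 275 and 256 at 1 d, so both genes of the pair differed, in opposite directions. Ldhb had 372, 223, 346 and 218 at 7 d and 410, 218, 229 and 270 at 14 d. These mice too were all below the uninjured, so lower Ldhb was not particular to 1 d. The share was not tested.

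**Figure D3:**
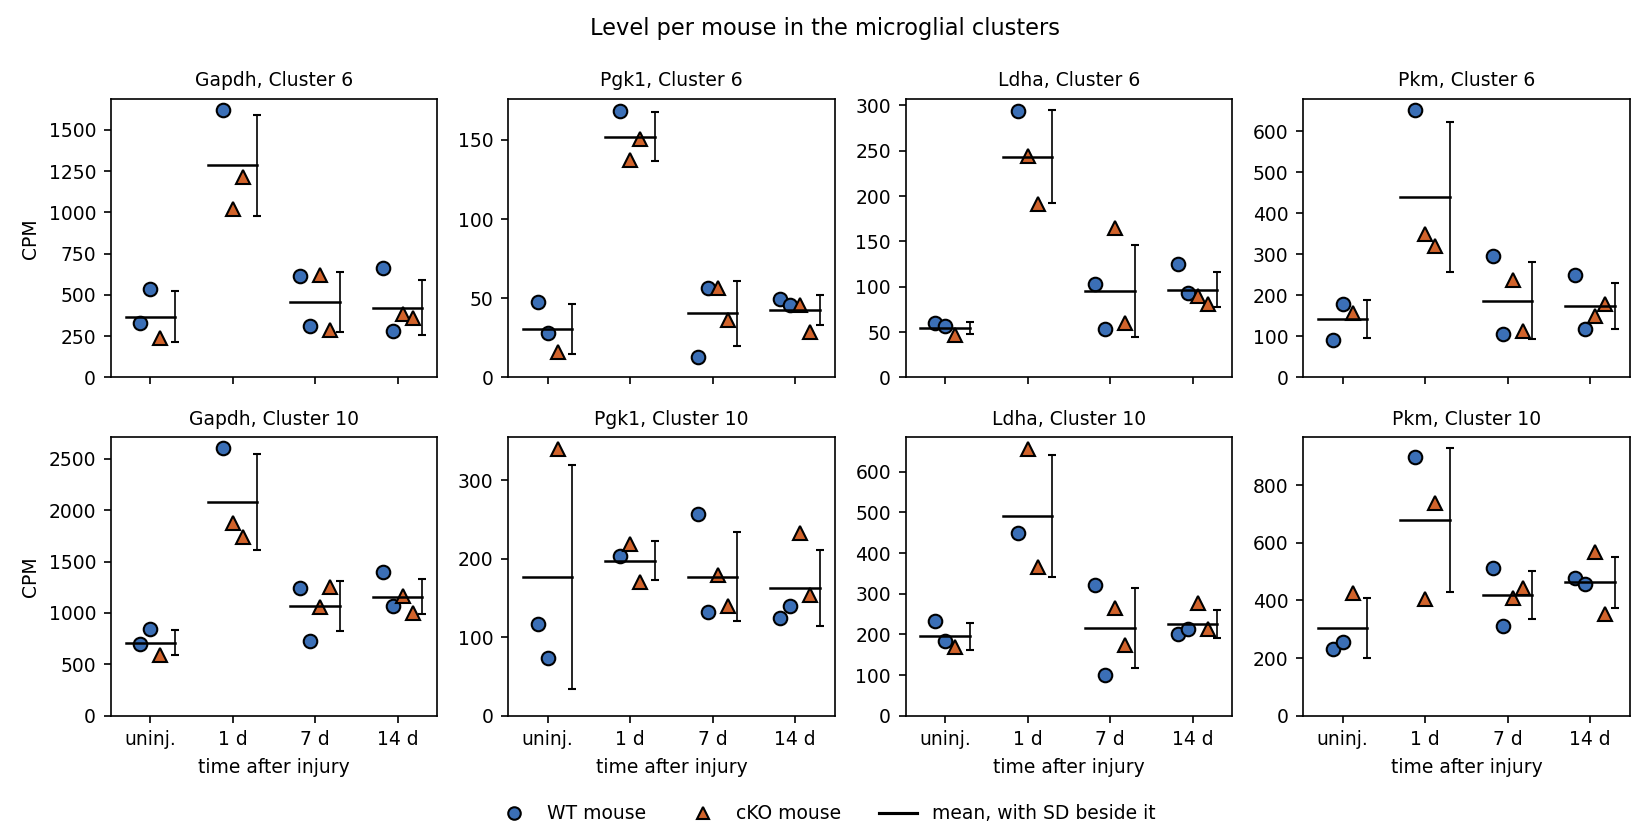
CPM of Gapdh, Pgk1, Ldha and Pkm in microglial Clusters 6 and 10 by time after the lesion (circles are WT mice, triangles cKO mice, lines means with SD beside them). Gapdh in Cluster 6 had 1023 to 1618 CPM at 1 d against 237 to 539 in uninjured mice, and Ldha 192 to 294 against 47.4 to 60.4.

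Markers of other cells were read in the same sums. In Cluster 6 the 6 endothelial markers summed to 441, 198 and 265 CPM at 1 d, with 6, 3 and 6 of them detected and Flt1 the most abundant, against 51.7, 28.4 and 142 in uninjured mice. The 5 macrophage markers summed to 441, 366 and 233 against 293, 378 and 174 (Lyz2 the most abundant), and the 6 microglia markers to 17815, 19247 and 17815 against 23843, 21163 and 21061 (C1qa). Endothelial markers were thus higher and microglia markers lower at 1 d, macrophage markers overlapped, and neutrophil markers were at 0, 0 and 18.3 against 0, 18.9 and 0. The 5 red blood cell markers had 147, 76.3 and 91.3 against 8.62, 66.2 and 31.6 and the 4 Schwann cell markers 231, 259 and 215 against 125, 132 and 158. Of the Schwann cell markers, Pmp22 made up 210, 259 and 210 CPM at 1 d and 125, 132 and 142 uninjured, with 1 or 2 of the 4 detected in each mouse.

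In Cluster 10, microglia markers summed to 9900, 11474 and 9774 CPM at 1 d, against 23344, 12331 and 12181, endothelial markers to 244, 219 and 278 against 77.8, 183 and 127, and macrophage markers to 2404, 1907 and 356 against 739, 2598 and 891. Red blood cell markers reached 16215 in cKO 1 d replicate 2. The part of these cells in the members' values was not tested.

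Cluster 12, labelled Immuno and highest in macrophage markers, was not fitted, since at least 2 uninjured mice were asked for and WT replicate 2 (33 cells) was its only one with enough cells. Gapdh there had 442 CPM in that mouse and 2625, 2059.5 and 2295 at 1 d (WT replicate 1, cKO replicates 1 and 2; 66, 73 and 306 UMIs), then 543, 774 and 511 in 3 mice at 7 d and 699, 331 and 401 in 3 at 14 d. All mice at 1 d thus lay above every other mouse of the cluster. Ldha had 32.8 CPM uninjured and 796, 677 and 570 at 1 d, with later mice at 362, 124 and 187 (7 d) or 63.6, 195 and 118 (14 d). Pgk1 had 65.5 uninjured, 318, 592 and 450 at 1 d and at most 125 later. Both were again highest in every mouse at 1 d.

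Pkm in Cluster 12 had 180 CPM uninjured, 1154, 705 and 870 at 1 d and at most 288 later, Aldoa 197, then 835, 903 and 1080, then at most 588, and Eno1 213, then 994, 846 and 420, then at most 254. For these 3 members too, the mice at 1 d were above all others, which makes 6 of 9 members with at least 10 UMIs, against 2.33% of 9386 such genes of the cluster. Hk2, with 98.3 uninjured and 199, 56.4 and 300 at 1 d, overlapped the later mice. The macrophage markers summed to 10740, 9564 and 11676 CPM at 1 d, against 12333 uninjured and 12559 to 40905 later, with Lyz2 the most abundant at 1 d. Neutrophil markers summed to 39.8, 113 and 60.0 at 1 d (1, 1 and 3 of 4 detected), against 164 uninjured. The 4 oligodendrocyte precursor markers summed to 239, 254 and 307 at 1 d, nearly all of it Vcan (1, 1 and 2 of 4 detected), against 16.4 uninjured and at most 149 later, and so also set the 1 d mice apart. Endothelial markers reached 1044 in cKO 1 d replicate 1. With 1 uninjured mouse and 10 to 45 cells a mouse, no test was made, and the part of these cells in the values was not tested.

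In endothelial Cluster 1, Pgk1 had 80.5 ± 16.6 CPM at 1 d against 48.5 ± 11.2 uninjured, and Ldha 245 to 392 against 115 to 242, with all 1 d mice above all uninjured mice for both in CPM, though for Ldha the nearest mice were almost level. On TMM-scaled CPM this held for Ldha alone, 1 of 9 members, against 2.35% of 10985 genes. The Ldha difference was 0.77 ± 0.31 (edgeR adjusted p = 0.922) and that of Pgk1 0.48 ± 0.34 (0.930). In neuronal Cluster 3, the median of 9 members was −3.41, against −2.98 for all genes, and −0.32 against −0.04 without the shallow mice, so these low values were those of the cluster's genes at large. In Cluster 5, the median of 9 members was −1.44, against −0.43 for all genes, with 1 of 9 above 0. Without TMM scaling it was −0.50 against 0.40, with 2 of 9 above 0. Without the shallow mice, which leaves 1 mouse at 1 d, it was −0.31 against 0.07. The size thus depended on the scaling and on the shallow mice, while the members lay below the median gene in each. The member above 0 with TMM scaling was Pfkp, with 401 ± 194 CPM at 1 d (189 to 571) and 178 ± 88.3 uninjured (108 to 278), which overlapped. Its high values at 1 d, 442 and 571, were those of the shallow mice, from 12 and 8 UMIs. In cKO 1 d replicate 2 it had 189, from 91 UMIs.

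At 7 d, no member passed by edgeR (0 of 84, against 0.0691% of all gene tests, 52 in all, 42 higher and 10 lower) and none by DESeq2. With a block for replicate number, 96 genes and 0 members were called, and with a term for the series of animal numbers 601 genes and 4 members. Set against the 84 member and 75264 gene tests of the fit given first, members had the higher share with the series term. Without the filter on low counts 2 members were called. At unadjusted p under 0.05, members gave 10 of 84 tests (11.9%), all lower, against 7.39% of all genes. The median of the members was −0.37, against 0.06 for all genes. These 10 tests lay in endothelial Cluster 1, neuronal Cluster 3, oligodendrocyte Cluster 4 and astrocyte Cluster 7, and none in microglia.

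In Cluster 7, Gapdh had 300, 478, 574 and 417 CPM in the uninjured mice (WT replicates 1 and 2, then cKO) and 425, 261, 196 and 207 at 7 d. WT 7 d replicate 1 overlapped the uninjured mice and the other 3 lay below them. The difference was −0.87 ± 0.29 (edgeR adjusted p = 0.310, 0.0577 to 1 over the alternatives). Pgk1 and Pkm in the same cluster were at −0.83 ± 0.34 (edgeR adjusted p = 0.482) and −0.66 ± 0.30 (0.589). Aldoc and Pfkp, the members most abundant there relative to other clusters, had 1443 ± 383 and 377 ± 133 CPM in the 4 uninjured mice and 1156 ± 409 and 337 ± 37.9 in the 4 mice at 7 d, and overlapped.

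At 14 d, no member passed by edgeR (0 of 84, against 0.191% of all gene tests, 144 in all, 119 higher and 25 lower) and none by DESeq2. With the block for replicate number, 204 genes and 0 members were called. With the term for the series of animal numbers, 1489 genes and 7 members were called, and without the filter 1 member. Against the 84 member and 75264 gene tests of the fit given first, members again had the higher share with the series term. At unadjusted p under 0.05, members gave 7 of 84 tests (8.33%), 1 higher and 6 lower, against 8.10% of all genes. The median of the members was −0.15, against 0.11. By this unadjusted count, in the fit without a series term, the members were near the background at this time.

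In astrocyte Cluster 5, Aldoc had 2421, 2984 and 2539 CPM in uninjured mice (WT replicates 1 and 2, cKO replicate 2) and 2504, 2070 and 2300 at 1 d. Later mice had 2533, 3386, 2594 and 4175 (7 d) or 4773, 3148, 3403 and 3427 (14 d). Every 14 d mouse lay above every uninjured mouse, and WT 14 d replicate 1 was the highest. The fit, which scales for composition, gave 0.09 ± 0.85 (edgeR adjusted p = 1.00). Pkm in Cluster 5 had 154, 460 and 424 uninjured and 766, 616, 622 and 600 at 14 d, likewise without overlap, and a difference of 0.36 ± 0.87 in the fit (edgeR adjusted p = 1.00). The CPM and the scaled values thus differed in this cluster.

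Outside astrocytes, Aldoc had negative differences at 7 d and 14 d in several clusters. In oligodendrocyte Cluster 4 it was −2.09 ± 0.62 at 7 d (edgeR adjusted p = 0.823, 0.0210 to 1 over the alternatives) and −1.93 ± 0.58 at 14 d (0.727, 0.00140 to 1). In Cluster 1 it was −2.19 ± 0.84 at 7 d (edgeR adjusted p = 0.546, 2.44e-08 to 1) and −1.83 ± 0.78 at 14 d (0.654, 4.46e-06 to 1). Without WT uninjured replicate 2, the differences in Cluster 1 were −0.22 at 7 d and 0.11 at 14 d, and they were 0.85 and 0.09 if conditions followed the cell names, so that direction and size there rested on single mice and on the titles.

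In endothelial Cluster 1, Aldoc had 386, 363 and 312 CPM in WT uninjured replicate 2, cKO 1 d replicate 2 and cKO uninjured replicate 2, and 16.5 to 102 in the other mice. The 8 astrocyte markers summed to 1439, 1175 and 1105 in those 3 mice, with Slc1a2 the most abundant, and to 101 to 510 in the others. The mice with the most Aldoc were those with the most astrocyte marker RNA. In Cluster 4, the same 3 mice had 625, 436 and 446 CPM of Aldoc (others 29.9 to 183) and 1810, 1540 and 1974 of the markers (others 209 to 1221). The part of astrocyte RNA in these values was not tested.

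**Figure D4:**
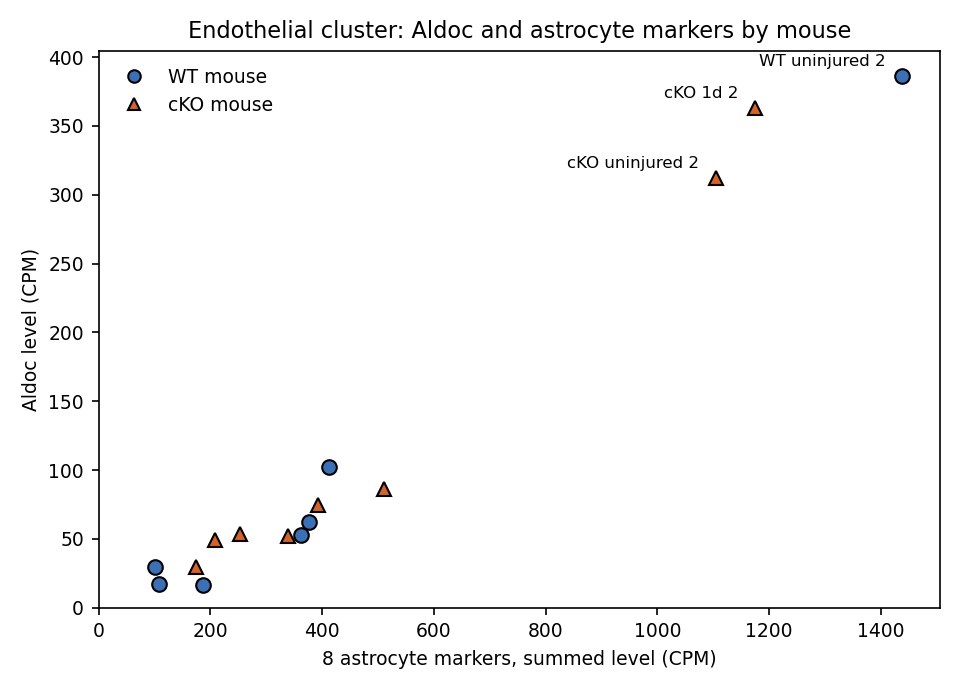
Aldoc (CPM) against the summed CPM of 8 astrocyte markers in endothelial Cluster 1 (circles are WT mice, triangles cKO mice). The 3 labelled mice had 312 to 386 CPM of Aldoc and marker sums of 1105 to 1439, the others marker sums of at most 510.

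Of the calls of all genes, 93.5% at 1 d, 80.8% at 7 d and 82.6% at 14 d were higher after injury. With RLE scaling these were 82.5%, 51.4% and 51.2%, and without TMM scaling 93.3%, 68.8% and 72.7%. The members' counts by edgeR were 0 under each scaling.

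Genotype was compared after injury, cKO against WT averaged over the 3 times. No member passed by edgeR (0 of 84, against 0.00133% of all gene tests, 1 in all, and 6 with a block for replicate number) or by DESeq2, and 1 without edgeR's filter on low counts. At unadjusted p under 0.05, members gave 3 of 84 tests (3.57%), 1 higher and 2 lower in cKO, against 3.31% of all genes. The median of the members was 0.17, against 0.18. The 3 were Pfkp in Cluster 3, at 3.18 ± 1.37 (edgeR adjusted p = 0.769), and Gapdh and Eno1 in Cluster 7, at −0.60 ± 0.28 and −0.57 ± 0.27 (0.861 for both). In Cluster 3 the median gene was at 2.01 and all 9 members were above 0, with a median of 2.18, so that most of the Pfkp value was shared by the cluster's genes. Pfkp there was at 0 UMIs in WT 1 d replicate 1, whose sum held 7570 UMIs, and overlapped between genotypes in the other mice.

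In astrocyte Cluster 7, the class that Cre under the GFAP promoter is meant to reach, Gapdh after injury had 451 (1 d), 425 and 261 (7 d) and 532 and 240 (14 d) CPM in WT mice. In cKO mice it had 144 and 296 (1 d), 196 and 207 (7 d) and 290 and 188 (14 d). The cKO mice were at the lower end, and 2 of them, at 290 and 296, lay above the lowest WT mice. Uninjured mice had 300 and 478 in WT and 574 and 417 in cKO, which overlapped. Eno1 there had a single high mouse, WT 1 d replicate 1, at 451, with the other WT mice after injury at 157 to 209 and the cKO mice at 144 to 196.

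Whether the effect of injury differed between genotypes was read from the interaction. No member passed by edgeR (0 of 84, against 0.00266% of all gene tests, 2 in all, and 9 with a block for replicate number) or by DESeq2. At unadjusted p under 0.05, members gave 2 of 84 tests (2.38%), both positive, against 4.18% of all genes. These were Pfkp in Cluster 7, at 1.25 ± 0.46 (edgeR adjusted p = 0.824), and Pfkp in Cluster 3, at 3.49 ± 1.54 (0.884), where the median gene was at 1.72 and all 9 members were above 0. In Cluster 7, Pfkp had 549 and 391 CPM in uninjured WT mice and 339 and 230 in uninjured cKO mice, and after injury 255 to 343 in 5 WT mice and 325 to 433 in 6 cKO mice. The 2 uninjured WT mice were thus above the 2 uninjured cKO mice, from 161 and 54 UMIs against 26 and 43. After injury the genotypes overlapped, with cKO mostly higher. With 2 mice on each side and no count of all genes so apart, the order before injury is a description only.

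Other genes of the pathway were taken from lists. By edgeR none was called in any of the comparisons for the other glycolytic enzymes (14 of 19 measured, 89 tests), their regulators (12 of 16, 79 tests), glucose and lactate transporters (6 of 6, 32 tests) or genes of the hypoxia response (13 of 14, 85 tests). At unadjusted p under 0.05 the counts at 1 d were 8, 9, 10 and 4 in the order given, or 8.99%, 11.4%, 31.2% and 4.71% of tests, beside 17.9% for the members and 6.62% for all genes. The transporters thus had the highest share, and the medians were −0.31, −0.35, 0.15 and −0.15. At 7 d the counts were 9, 6, 4 and 6 (10.1%, 7.59%, 12.5% and 7.06%, against 7.39% of all genes). At 14 d they were 14, 12, 8 and 5 (15.7%, 15.2%, 25% and 5.88%, against 8.10%). For genotype they were 2, 5, 2 and 3 (2.25%, 6.33%, 6.25% and 3.53%, against 3.31%). For the interaction they were 2, 3, 3 and 4 (2.25%, 3.80%, 9.38% and 4.71%, against 4.18%). Among the lowest p in Cluster 6 at 1 d, and named after their values were seen, were Pdk1, pyruvate dehydrogenase kinase, at −4.60 ± 1.13 (edgeR adjusted p = 0.168), and Slc2a5, the fructose transporter of microglia, at −1.87 ± 0.52 (0.197), both lower, while Slc2a1, a glucose transporter, was at 4.49 ± 1.43 (0.254). The Slc2a1 difference in Cluster 6 was 4.17 ± 1.32 at 7 d (edgeR adjusted p = 0.589) and 4.27 ± 1.25 at 14 d (0.610). Slc2a1 had 1693 CPM in endothelial Cluster 1 and 40.4 in Cluster 6. Endothelial markers in Cluster 6 were also higher at 1 d. At 7 d (26.9 to 218 CPM) and 14 d (22.7 to 174) these markers overlapped the uninjured mice (28.4 to 142). Their part in the Slc2a1 values was not tested. Over the 14 mice of Cluster 6, Slc2a1 ran from 0 to 76.3 CPM and Pdk1 from 0 to 142. The uninjured cKO arm there is 1 mouse, as is WT at 1 d. The part of counts of 0 in these large differences was not tested.

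Several members are known targets of hypoxia-inducible factors, which bind the core ACGTG, and the promoters of all members were read for it. The hypoxia list itself had 0 of 6 tests at unadjusted p under 0.05 in Cluster 6 at 1 d, with a median of −0.04 against −0.06 for all genes. In Cluster 10 it had 0 of 8 at 1 d, against 10.1% of all genes there, with a median of 0.99 against 0.40. At 7 d it had 2 of 8 (25%), against 13.6%, with a median of 2.28 against 1.27. At 14 d it had 2 of 8 (25%), against 15.9%, with a median of 2.53 against 1.33. RefSeq promoter windows on GRCm38.p6 run from 250 bases before to 50 after a start, and both strands were searched. All 10 members had a window, and 8 of 17 windows (47.1%) held the core, or 7 of 10 members (70%), against 6447 of 32851 windows of all genes (19.6%) and 5886 of 27025 genes (21.8%). Ldha had 5 matches, Hk2, Pgk1 and Pkm 2 each, and Aldoa, Aldoc and Gapdh also held it, while the windows of Eno1, Eno2 and Pfkp did not. A CACGTG, as in both Ldha stretches below, gives 2 of these matches, 1 on each strand. The stretches of Ldha and Pgk1, whose 1 d values in Clusters 6 and 12 lay above the uninjured, and of Hk2, whose values did not, are shown 5′ to 3′ on the strand given, with capitals marking the core or its reverse complement and joined letters where both overlap. A match is a description of sequence and not a bound site.
Ldha, chr7:46845639-46845684 (plus strand): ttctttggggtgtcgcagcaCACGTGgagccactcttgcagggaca
Ldha, chr7:46845736-46845794 (plus strand): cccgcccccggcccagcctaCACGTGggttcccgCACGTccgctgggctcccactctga
Pgk1, chrX:106186930-106186993 (plus strand): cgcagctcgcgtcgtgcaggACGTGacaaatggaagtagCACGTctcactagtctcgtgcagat
Hk2, chr6:82774656-82774700 (minus strand): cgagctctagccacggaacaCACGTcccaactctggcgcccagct
Hk2, chr6:82774482-82774526 (minus strand): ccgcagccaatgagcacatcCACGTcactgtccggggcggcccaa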

How the data were processed

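Libraries were 10x Genomics Chromium 3′ libraries, 1 per mouse. Per the submitters' processing notes, reads were processed with Cell Ranger on mm10 and cells filtered and clustered with Seurat in R 4.1.2. The authors deposited raw counts of UMIs per gene and cell, without normalization, and the deposited cell table gives the percent of mitochondrial UMIs, the batch and the cluster of each cell. Totals per cell agreed between table and matrix for 18203 cells. Of the genes listed, 41193 had a count. Doublets were not removed here. The 15 mice used had 536263 to 9008729 UMIs (median 3032957), and a mouse entered a cluster with at least 10 cells. Gene identifiers and coordinates were matched by symbol to GENCODE M21 and may differ from the authors' annotation.

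UMIs were summed per mouse and cluster. edgeR 4.0.16 (TMM, filterByExpr, quasi-likelihood F tests, 1 mean per condition) was run in R 4.3.3 with limma 3.58.1 in the 10 clusters with enough mice, and 7 clusters were not fitted. DESeq2 1.42.0 was the other tool. Standard errors of edgeR differences are the difference divided by the square root of F. The scripts were tested on simulated data, where most known differences were left uncalled. Levels, shares and figures were made with Python 3.11.15, numpy 2.4.6, pandas 2.3.3, scipy 1.17.1 and matplotlib 3.10.9. Likeness used log CPM with a pseudocount of 10 and genes with at least 50 CPM in a cluster of at least 3 mice, and 3 genes were named per member. Members and lists were chosen with earlier results of these data known. Named besides the members are the genes most like each of them and the list genes with low p in Cluster 6.

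The deposited batch equalled the replicate number in all 16 mice. Pairing by replicate number was checked on residual correlations. The median r ran from 0.0183 to 0.256 over 10 clusters, highest in Clusters 8 (0.256) and 4 (0.190), and 69 of 180 pairs were above 0.1. No block entered the fits given first, which thus leave a part shared by replicate number unmodelled. Counts with the block stand beside them. Alternatives were other scalings, no filter, at least 30 cells, WT mice alone, an additive design, the conditions of the cell names, no shallow mice, no shared barcodes, no 1 d mice (for levels), other quasi-likelihood settings and each mouse left out in turn.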

Additional observations from a re-analysis of the deposited data

Results flagged for a closer look

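Ldha in Cluster 10 at 14 d had 276.9 CPM in cKO replicate 1 against 201 to 214 in the other 3 mice, a gap of 0.832 of the range. Of 31 groups of mice looked at, this was the 1 that a Dixon gap rule picked out, where about 1 in 20 would be picked by chance. Eno1 at 1 d lay above the uninjured mice in Cluster 10 (log2 ratio of means 1.12) and below them in Cluster 3 (−1.19), a difference of 2.32 that was not tested. In Cluster 3 the shallow 1 d mice had 0 and 1 UMIs of Eno1 (0 and 21.4 CPM), and cKO 1 d replicate 2 had 23.9 CPM. In Cluster 10 the shallow 1 d mice had 407 and 406 CPM, from 10 and 13 UMIs, and cKO 1 d replicate 2 had 227. The values thus rested in part on shallow mice. Pkm at 14 d lay above the uninjured mice in Cluster 5 (0.91) and below them in Cluster 3 (−0.60), a difference of 1.51 that was not tested. In the fit given above, which scales for composition, the Pkm difference in Cluster 5 was smaller and below its standard error. Both differences between clusters were found among 30 pairs of gene and time.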

How the results depend on the processing

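Of 789 alternative values, 674 were the same, 16 stronger, 95 moved and 4 reversed. A member's difference was labelled the same if its sign and its side of the 0.05 threshold held, and a count if it changed at most 1.5-fold. By this rule 387 of 400 differences and 143 of 150 counts of members were the same. Since no member passed in the fits given first, these labels do not show that differences kept their size. At 1 d (31 genes called in all) the count was 79 by DESeq2, 60 without TMM, 280 without the filter, 56 with the block, 81 with a block for animal number series, 85 in the additive design, 2 in WT alone and, added after seeing the data, 115 for time without genotype. Leaving out each mouse gave 11 (without WT 1 d replicate 1) to 54 (without WT 14 d replicate 1). At 7 d (52) it was 393 without the filter, 10 with at least 30 cells, 96 with the block, 601 with the series, 6 with the conditions of the cell names, 16 without shallow mice and 11 in WT alone, and 10 (without cKO uninjured replicate 2) to 267 (without WT uninjured replicate 1) on leaving out a mouse.

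At 14 d (144) it was 73 by DESeq2, 41 with RLE, 829 without the filter, 23 with at least 30 cells, 1489 with the series, 40 with the cell names, 226 in the additive design, 18 in WT alone and, added, 49 with bias-adjusted quasi-likelihood and 264 for time without genotype, and 37 (without cKO 14 d replicate 1) to 327 (without WT uninjured replicate 1) on leaving out a mouse. For genotype (1) it was 0 by DESeq2, 64 without the filter, 3 with at least 30 cells, 6 with the block, 7 with the series, 21 with the cell names, 4 in the additive design, 20 without shallow mice and, added, 2 without shared barcodes and 2 with robust quasi-likelihood, and 0 to 7 on leaving out a mouse. For the interaction (2, all alternatives added) it was 0 by DESeq2, 1 with RLE, 33 without the filter, 4 with at least 30 cells, 9 with the block, 15 with the series, 42 with the cell names, 1 without shallow mice, 1 without shared barcodes, 0 with bias-adjusted and 6 with robust quasi-likelihood, and 0 to 23 on leaving out a mouse.

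Members called were 0 except, at 1 d, 2 by DESeq2 and 2 without the filter, at 7 d, 2 without the filter and 4 with the series, at 14 d, 1 and 7, and for genotype 1 without the filter. With at least 30 cells, 4 of 10 members kept their highest cluster, and Aldoa in Cluster 16 was 394 CPM. Without 1 d mice (added), 6 of 10 kept it, and Aldoa in Cluster 16 was 416 CPM. Values that reversed were Hk2 in Cluster 6 at 1 d without shallow mice (0.0734), Aldoc in Cluster 1 at 7 d with the cell names (0.85), and Aldoc in Cluster 1 at 14 d with the cell names (0.0933) and on leaving out a mouse (−2.35 without WT uninjured replicate 1 to 0.11 without WT uninjured replicate 2).

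Counts of calls over all genes thus depended strongly on settings and single mice, and the cause was not tested. With 3 mice at 1 d, 2 of them shallow, the values at that time rest on few molecules. Replicate number and batch coincide and cannot be told apart, and the cell names of 6 of the 8 replicate 2 mice differ from the titles. Cells were assigned to clusters by the authors on the same counts, and protein and enzyme activity were not measured.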

Other observations

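Among list genes at 14 d, and named after their values were seen, Ldhb and Pgm1 in Cluster 3 were at −1.20 ± 0.34 (edgeR adjusted p = 0.104) and −1.41 ± 0.41 (0.113), where the median gene was at 0.04. In Cluster 10, Hif1a was at 1.78 ± 0.52 (edgeR adjusted p = 0.129), where the median gene was at 1.33.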
